A study of Mus musculus and Homo sapiens with 4 samples.

Results

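Genes of the TGF-beta and BMP pathway were followed in 2 tumour cell lines after knock-down of Merm1, also called Wbscr22 and now BUD23, a methyltransferase of 18S ribosomal RNA. The members were a list of 36 genes, namely 6 ligands, 8 receptors, 6 extracellular or membrane regulators, 7 SMADs, 3 nuclear co-repressors and 6 targets, found by their symbols in the array annotation. All 36 had a probe set of their own on the mouse array, among 18193 named genes, and 35 had one on the human array, among 19773. The human BMPR1A was not analysed here. They stood on 81 of 45101 mouse probe sets and 100 of 54675 human probe sets.

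The groups were LM8 mouse osteosarcoma cells infected with the retroviral vector pSIREN-RetroQ carrying a hairpin against mouse Merm1, LM8 cells infected with the control vector, A375M human melanoma cells infected with the vector carrying a hairpin against human Merm1, and A375M cells infected with the control vector. All 4 were stably infected lines grown in medium with serum, and each was measured once, on 1 Affymetrix array. Whether a line was 1 clone or a pool, and the number of hairpins used, are not given in the sources used here. Differences are given on the log2 scale, with the control array subtracted from the knock-down array of that line. With 1 array per group they have no replicate check, no p-value and no error from cultures, which limits how firmly any of them can be read. The probe sets of a gene give a technical gauge, since their differences had a median SD of 0.12 for LM8 genes and 0.071 for A375M genes. The A375M gauge included probe sets that read the same in both arrays. Genes such as SMAD1 then had an SD of 0, so this gauge may be too small.

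TGF-beta and BMP ligands are secreted dimers that join type I and type II receptor kinases on the cell surface. TGF-betas and activins act mainly through SMAD2 and SMAD3, and BMPs through SMAD1 and SMAD5, each with the common partner SMAD4, while SMAD6 and SMAD7 inhibit the pathway and are themselves induced by it. In bone-forming cells BMPs drive differentiation and are held in check by secreted antagonists such as noggin and gremlin. In melanoma TGF-beta family signals are known for effects on invasion and on the matrix around the cells.

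The hairpin target was lower in both knock-down arrays. Bud23 read 8.48 in the LM8 knock-down array and 10.61 in the LM8 control array, a difference of -2.13, and BUD23 read 8.38 in the A375M knock-down array and 10.70 in the A375M control array, a difference of -2.32. A gene was read from its probe set with the highest mean, called the brightest here, and kept where it lay above the median of the array's probe sets in at least 1 array of the pair, which kept 11646 genes in LM8 and 13244 in A375M. Osteoblast markers lay above the array median in both LM8 arrays for 6 of 6 measured genes, and their summed linear level was 12332 in the knock-down array and 11507 in the control array. Fibroblast markers did so for 8 of 8 in LM8, with a summed level of 17311 in the knock-down array and 16950 in the control array and a median difference of 0.19. Among them COL3A1, a fibrillar collagen gene, read 8.96 in the LM8 knock-down array and 6.59 in the LM8 control array, and its difference of 2.37 was the highest of all kept LM8 genes. The other fibroblast markers went both ways in LM8. LUM and ACTA2, which had the highest levels of these markers, were lower, at -0.083 and -0.11. PDGFRA, PDGFRB, DCN, TAGLN and FAP were higher, at 0.11 to 0.26. In the same array pair Tgfbi, Tgfb2, Tgfb3, Fstl1 and Col1a1 were higher, while Ccn1, Junb and Ccn2 were lower, as given below. In LM8 leukocyte and endothelial markers lay above the median for 0 of 6, epithelial ones for 1 of 5 and melanocyte ones for 3 of 8, the last at a summed 935 in the knock-down array and 687 in the control array. The part of these marker genes in the results was not tested. In A375M melanocyte markers lay above the median for 7 of 7 measured genes, with a summed level of 6936 in the knock-down array and 6557 in the control array. The shares there were 7 of 8 for fibroblast, 4 of 8 for osteoblast, 3 of 5 for leukocyte and endothelial and 2 of 5 for epithelial markers, so the melanocyte label rests on SOX10 at 11.53 in the knock-down array and 11.62 in the control array, and on MITF at 10.74 and 10.61. S100B read 11.01 in the A375M knock-down array and 10.68 in the A375M control array. The pigment genes TYR, TYRP1, PMEL and MLANA were dimmer. They read 6.04, 6.04, 5.57 and 5.19 in the knock-down array and 6.04, 6.01, 5.42 and 4.84 in the control array. The medians of these arrays were 4.67 and 4.64. In bulk RNA fewer cells of a type and less RNA per cell cannot be told apart.

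In A375M 45.4% of probe sets read exactly the same in both arrays, against 0.705% in LM8, and values recurred across probe sets. Of the 33 kept members in A375M, 19 had a control value that also stood at another probe set, and 7 had one that stood at more than 20 others. In LM8 this held for 4 of 31 and 0 of 31. A human difference of exactly 0 is therefore given below as an identical value and not as a measured absence of change.

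**Figure D1:**
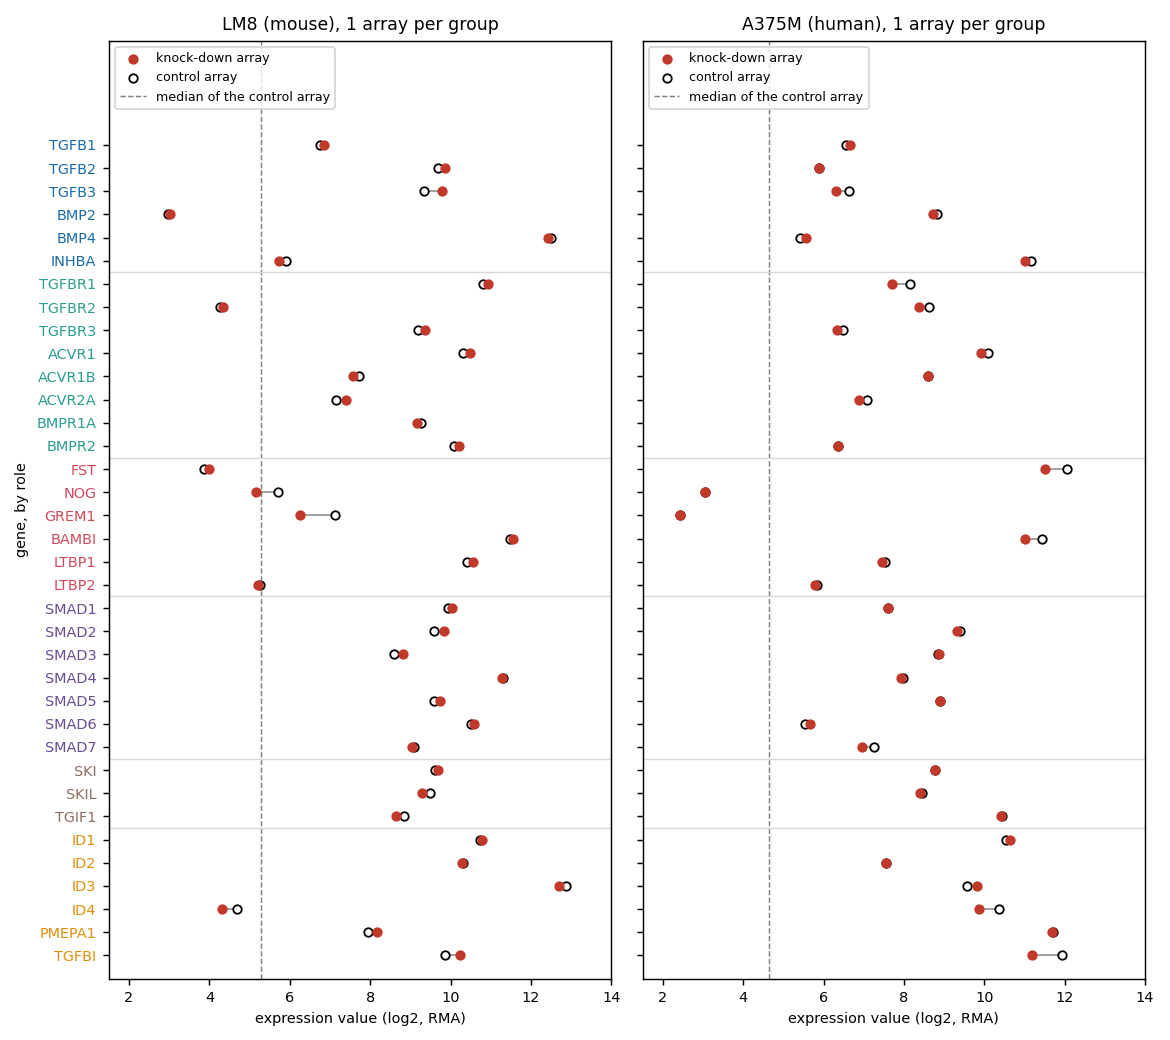
Level of the 36 members in LM8 (left) and A375M (right), as log2 RMA expression values on the horizontal axis, with 1 row per gene grouped by role (human symbols for both species). Filled red points are the knock-down array, open points the control array and the dashed line the median of the control array, and the widest gap is that of GREM1 in LM8, at 6.26 and 7.11.

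In the LM8 knock-down array the members Grem1 and Nog, secreted BMP antagonists, were lower, while the ligand genes Tgfb3 and Tgfb2 and the target gene Tgfbi were higher. In a further list of genes, given below, 12 of 14 kept extracellular regulators were higher and 2 lower. Of all kept genes 53.8% were higher. Among the 12 were Chrd at 0.15 and Twsg1 at 0.31 on its brightest probe set, both named after their values were seen. Twsg1 had probe sets of both signs. Of the 31 kept members 19 were higher and 12 lower, which is 61.3% and 38.7%, against 53.8% and 46.0% of all kept genes, and the median difference was 0.096 against 0.015. At least 1.5-fold lower was 1 member, Grem1, where 1.31% of all kept genes were, and 0 members were at least 1.5-fold higher, where 1.16% were. At a size of at least 0.3 there were 2 members higher and 2 lower, or 6.45% each, against 6.85% and 5.99% of all kept genes, so these shares were near the background. Of the 2 lower ones Nog was kept only through its control value, and a gene kept so can only read lower. The direction of the counts held under the alternatives, with 17 to 22 members higher and 9 to 14 lower. All kept genes had the same direction, with 51.6% to 57.0% higher. With the mean of probe sets 17 members were higher and 13 lower, or 56.7% higher, near the 51.6% of all kept genes. The members not kept in LM8 were Bmp2, Tgfbr2, Fst, Ltbp2 and Id4.

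In the A375M knock-down array more members were lower, led by the matrix protein gene TGFBI and the activin antagonist gene FST. Of the 33 kept members 22 were lower, 6 higher and 5 identical, which is 66.7% lower and 18.2% higher, against 40.3% and 29.0% of all kept genes, although after repeated quantile normalization 17 members were lower and 15 higher, with 36.6% of all kept genes lower and 57.1% higher. With each array centred on its median 27 members were lower and 6 higher, with 77.0% of all kept genes lower. Of all kept genes 30.8% were identical, which bears on the shares with the deposited values. With identical values left out 79.3% of the members were lower, against 62.0% of all kept genes. With the filter at the 70th percentile 71.4% of the members were lower, against 48.2%. The median difference was -0.051 against 0 over all kept genes. At least 1.5-fold lower was 1 member, TGFBI, where 0.37% of all kept genes were, and 0 members were at least 1.5-fold higher, where 0.378% were. At a size of at least 0.3, 6 members (18.2%) were lower, against 3.26% of all kept genes, and 0 were higher, against 2.48%. These 6 were TGFBI, FST, ID4, TGFBR1, BAMBI and TGFB3, and SMAD7, at -0.297, lay just outside. The kept members excluded NOG and GREM1, whose values were below the array median and identical in both arrays.

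**Figure D2:**
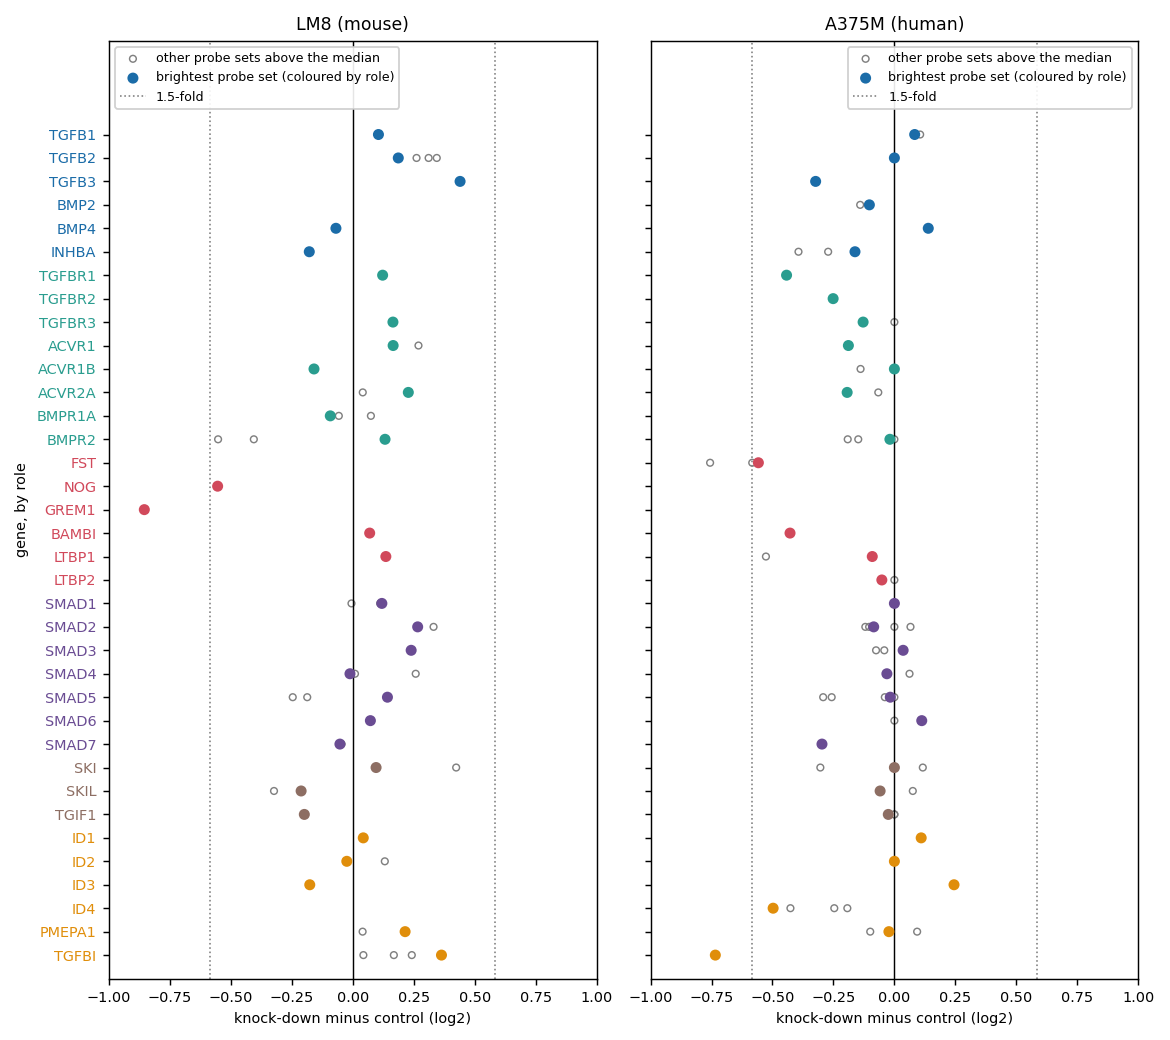
Difference of each kept member, given as log2 of knock-down minus log2 of control (horizontal axis), in LM8 (left) and A375M (right), with 1 row per gene grouped by role. Filled points are the brightest probe set of a gene, open grey points its other probe sets above the array median and dotted lines 1.5-fold, and GREM1 in LM8 (-0.85) and TGFBI in A375M (-0.73) lie outside the lines with their brightest probe set.

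The promoters of mouse Grem1, Tgfb2 and Tgfbi are shown as examples of members that were lower or higher in LM8 on all their probe sets above the median. A promoter here is the 250 bases before the annotated start in the RefSeq table of build GRCm38. They lie at chr2:113758649-113758898 on the minus strand for Grem1, chr1:186705990-186706239 on the minus strand for Tgfb2 and chr13:56609336-56609585 on the plus strand for Tgfbi. Capitals mark the letters CAGAC or GTCTG, which are the core of the SMAD box on either strand, and GGCGCC, a GC-rich SMAD element that reads the same on both strands.
Grem1: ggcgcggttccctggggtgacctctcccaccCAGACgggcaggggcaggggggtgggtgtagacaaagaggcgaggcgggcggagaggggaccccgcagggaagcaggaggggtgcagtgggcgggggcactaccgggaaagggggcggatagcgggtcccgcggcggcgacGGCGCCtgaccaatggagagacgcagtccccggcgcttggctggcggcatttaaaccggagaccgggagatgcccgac
Tgfb2: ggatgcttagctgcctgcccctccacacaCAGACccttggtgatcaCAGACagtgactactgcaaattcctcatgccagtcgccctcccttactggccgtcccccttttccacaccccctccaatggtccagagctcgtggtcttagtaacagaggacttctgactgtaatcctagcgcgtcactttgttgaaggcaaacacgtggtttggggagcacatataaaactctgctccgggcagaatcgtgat
Tgfbi: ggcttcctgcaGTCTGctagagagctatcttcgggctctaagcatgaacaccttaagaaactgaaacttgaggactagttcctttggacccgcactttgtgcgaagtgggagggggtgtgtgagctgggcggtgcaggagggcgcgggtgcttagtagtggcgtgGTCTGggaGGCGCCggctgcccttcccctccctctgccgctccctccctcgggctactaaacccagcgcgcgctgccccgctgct
The Grem1 window held 1 SMAD box, the Tgfb2 window 2 and the Tgfbi window 2, and Grem1 and Tgfbi held 1 GC-rich element each. The motifs did not overlap. The TATA letters TATAAA or TTTATA, left in lower case, stood once in the Tgfb2 window, 31 bases before the start. Of all 32851 windows of this length 42.2% held at least 1 SMAD box, 11.7% at least 2, 9.59% the GC-rich element and 12.4% the TATA letters. Promoters were in the table for 24 of the 36 members in 32 windows, of which 14 held a SMAD box and 9 a GC-rich element. A match of letters is a description and no evidence of binding.

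Among the ligand genes, that of TGF-beta 3 had opposite signs in the lines. Tgfb3, which encodes a TGF-beta ligand, read 9.79 in the LM8 knock-down array and 9.35 in the LM8 control array. The knock-down value was higher by 0.44, and 302 of the kept LM8 genes had a higher one. In A375M TGFB3 read 6.31 in the knock-down array and 6.64 in the control array, a difference of -0.32. Its other human probe set, at 3.64 and 3.33, lay below the median and differed by 0.31, so that the mean of both was -0.006.

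Tgfb2, which encodes another TGF-beta ligand, had 4 mouse probe sets above the median. They read 9.87, 9.88, 9.44 and 6.84 in the LM8 knock-down array and 9.68, 9.57, 9.18 and 6.50 in the LM8 control array. All 4 were higher in the knock-down array, by 0.19 to 0.34. In A375M the brightest TGFB2 probe set was identical at 5.88. TGFB1, which encodes the most widely expressed TGF-beta, differed by 0.11 in LM8 and 0.083 in A375M.

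INHBA encodes the activin A subunit. Its 3 human probe sets read 11.01, 10.45 and 7.31 in the knock-down array and 11.17, 10.84 and 7.58 in the control array. All 3 were lower in the knock-down array, by -0.16, -0.39 and -0.27. In LM8 Inhba was near the array median and differed by -0.18. The BMP ligand genes differed little. Bmp4 in LM8, at 12.42 in the knock-down array and 12.49 in the control array, differed by -0.069, and BMP4 in A375M, at 5.56 and 5.42, by 0.14. BMP2 differed by -0.10 and -0.14 on its 2 human probe sets.

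Of the 7 kept receptor genes in A375M 6 were lower and 1 identical, where 40.3% of all kept genes were lower and 30.8% identical, with a median of -0.19 and a range of -0.44 to 0. After repeated quantile normalization and after removal of a loess curve 6 of 7 were lower and 1 higher, where 36.6% and 46.0% of all kept genes were lower. TGFBR1, the type I receptor of TGF-beta, read 7.70 in the A375M knock-down array and 8.14 in the A375M control array, a difference of -0.44 on its only probe set above the median. Its name carries the mark for probes that match several transcripts, and with such probe sets left out the gene was not kept. TGFBR2, the type II receptor, read 8.37 in the knock-down array and 8.62 in the control array, a difference of -0.25. ACVR2A, an activin type II receptor gene, differed by -0.19 and -0.066 on its probe sets, ACVR1, a BMP type I receptor gene, by -0.19 and TGFBR3, a co-receptor gene, by -0.13 on the brighter of its probe sets. ACVR1B was identical in both arrays on its brightest probe set and BMPR2 differed by -0.018.

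In LM8 the receptor genes had 5 of 7 kept members higher and 2 lower, where 53.8% and 46.0% of all kept genes were. Their median was 0.13 and their range -0.16 to 0.23. With the mean of probe sets 3 were higher and 4 lower, where 51.6% and 48.3% of all kept genes were. Acvr2a was at 0.23, Acvr1 at 0.17 and 0.27 on its probe sets, Tgfbr3 at 0.16 and Tgfbr1 at 0.12, while Acvr1b was at -0.16 and Bmpr1a at -0.092. Bmpr2, the type II receptor of BMPs, had probe sets of both signs. Its brightest read 10.22 in the LM8 knock-down array and 10.09 in the LM8 control array, a difference of 0.13. The other probe sets read 7.01 and 5.24 in the knock-down array and 7.56 and 5.65 in the control array, differences of -0.55 and -0.41. The mean over its probe sets was -0.28, so the direction of Bmpr2 depends on the probe set. Which probe set reports the transcript was not tested.

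The extracellular and membrane regulators held the member with the largest difference in LM8 and the second largest in A375M. In A375M the 4 kept genes FST, BAMBI, LTBP1 and LTBP2 were lower with the deposited, centred, quantile-normalized and loess-corrected values. Of all kept A375M genes 40.3%, 77.0%, 36.6% and 46.0% were lower with these values. Grem1, which encodes the BMP antagonist gremlin, read 6.26 in the LM8 knock-down array and 7.11 in the LM8 control array. The difference was -0.85, or 1.81-fold lower, and 0.481% of kept LM8 genes had a lower one. Nog, which encodes the BMP antagonist noggin, read 5.15 in the LM8 knock-down array and 5.71 in the LM8 control array, a difference of -0.55 with the knock-down value below the array median of 5.28. It was thus kept only through the control array, which fixed its direction. Both genes had 1 probe set, and with 32 added to the linear values, which dampens differences of dim genes, they were at -0.65 and -0.32.

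FST encodes follistatin, an antagonist of activins, and Fst lay below the median in LM8. Its 3 human probe sets read 11.51, 11.30 and 8.34 in the knock-down array and 12.07, 11.88 and 9.10 in the control array. All 3 were lower in the knock-down array, by -0.56, -0.58 and -0.76, and 1 of them passed 1.5-fold. With the mean of its probe sets FST was at -0.63 and so counted as at least 1.5-fold lower. BAMBI, a membrane pseudoreceptor that dampens TGF-beta and BMP signals, read 11.02 in the A375M knock-down array and 11.44 in the A375M control array, a difference of -0.43. In LM8 Bambi, at 11.55 in the knock-down array and 11.48 in the control array, differed by 0.069. LTBP1, which holds latent TGF-beta in the matrix, read 7.45 and 5.59 on its human probe sets in the knock-down array and 7.54 and 6.12 in the control array, differences of -0.091 and -0.53. Ltbp1 in LM8 differed by 0.14.

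On their brightest probe sets the SMAD genes differed by less than 0.3 in size in both lines. In LM8 5 of 7 were higher, where 53.8% of all kept genes were, with a median of 0.12 and a range of -0.053 to 0.27. Smad2, a transducer of TGF-beta signals, read 9.84 and 7.21 in the LM8 knock-down array and 9.58 and 6.87 in the LM8 control array, differences of 0.27 and 0.33. Smad3 was at 0.24 on its only probe set above the median. The inhibitory Smad6 and Smad7, both induced by the pathway, were at 0.072 and -0.053. Smad4 and Smad5 changed sign with the mean of their probe sets, to 0.085 and -0.097.

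In A375M 4 of 7 SMAD genes were lower, 2 higher and 1 identical, with a median of -0.017. Of all kept genes 40.3% were lower, 29.0% higher and 30.8% identical. After repeated quantile normalization 5 SMAD genes were higher and 2 lower, where 57.1% and 36.6% of all kept genes were. SMAD7, which encodes an inhibitor of the receptors, read 6.97 in the knock-down array and 7.27 in the control array, a difference of -0.30 on 1 probe set, and its control value stood at 34 other probe sets. SMAD5 had 5 probe sets above the median, at -0.29 to 0, with the brightest at -0.017. SMAD2 was at -0.085 and SMAD4 at -0.031, and without probe sets marked as shared they were at 0.066 and 0.062. SMAD3 was at 0.036 and SMAD6 at 0.11.

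Of the nuclear co-repressors, which restrain SMAD complexes on DNA, Skil and Tgif1 were lower in LM8 at -0.21 and -0.20. A second Skil probe set was at -0.32. Ski was higher on both probe sets, with 9.70 and 9.51 in the LM8 knock-down array and 9.60 and 9.09 in the LM8 control array, differences of 0.096 and 0.42. In A375M the 3 SKI probe sets read 8.78, 7.59 and 5.74 in the knock-down array and 8.78, 7.47 and 6.05 in the control array, so the brightest was identical and the others differed by 0.12 and -0.30. SKIL was at -0.059 and TGIF1 at -0.025 in A375M. On the brightest probe sets there 2 of the 3 co-repressor genes were lower and 1 was identical, with 3 lower in centred arrays and 3 higher after repeated quantile normalization. Of all kept A375M genes 40.3% were lower, 77.0% were lower in centred arrays and 57.1% were higher after repeated quantile normalization.

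Among the targets TGFBI, which encodes a secreted matrix protein first found as a TGF-beta-induced transcript, had the lowest difference of all members in A375M. It read 11.19 in the A375M knock-down array and 11.92 in the A375M control array on 1 probe set. The difference was -0.73, or 1.66-fold lower, and 0.121% of kept A375M genes had a lower one. In LM8 its 4 probe sets read 10.23, 9.92, 8.95 and 8.32 in the knock-down array and 9.86, 9.76, 8.90 and 8.08 in the control array. All 4 were higher in the knock-down array, by 0.36, 0.17, 0.044 and 0.24. Without probe sets marked as shared the LM8 value was 0.24.

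The ID genes encode inhibitors of basic helix-loop-helix transcription factors and are direct targets of BMP signals in many cells. ID4 was lower in A375M on all 4 probe sets above the median, which read 9.87, 8.15, 7.01 and 6.22 in the knock-down array and 10.37, 8.35, 7.44 and 6.47 in the control array. The differences were -0.50, -0.19, -0.43 and -0.25. ID3 went the other way in A375M, at 9.81 in the knock-down array and 9.57 in the control array, a difference of 0.24, the highest of all kept members there. ID1 was at 0.11 and ID2 identical.

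In LM8 Id3, at 12.70 in the knock-down array and 12.88 in the control array, differed by -0.18. Id1 was at 0.043 and Id2 at -0.024 and 0.13 on its probe sets above the median, so the ID genes had no common direction in either line. Another Id2 probe set read 4.37 in the LM8 knock-down array and 4.99 in the LM8 control array, a difference of -0.62 below the array median. Id4 lay below the median in LM8. PMEPA1, a TGF-beta target whose product limits SMAD signalling, was at 0.21 and 0.040 in LM8 and at -0.022, 0.093 and -0.099 in A375M.

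Members were set side by side for the 28 that were kept in both lines. Of these 12 were higher in LM8 and lower in A375M, which is 42.9%, where 24.0% of the 8981 genes kept in both lines were. In the opposite way went 2 members, BMP4 and ID3, and 1089 of all 8981 genes. Higher in both were 4 members (14.3%) and lower in both 5 (17.9%), near the 14.9% and 20.7% of all genes. The other 5 members had an identical value in A375M. Of all 8981 genes 2545 had an identical value in at least 1 line. With identical values left out 12 of 24 members were higher in LM8 and lower in A375M, against 34.5% of all genes, a narrower gap. At a size of at least 0.3 in both lines 0 members went the same way and 2 went opposite ways, TGFB3 and TGFBI. Of all 8981 genes 40 went the same way at this size and 37 opposite ways. The count of 12 moved with the scaling of the arrays. It was 16 (57.1%) with centred arrays, where 45.7% of all genes went that way, and 10 (35.7%) after repeated quantile normalization, where 19.2% did. Whether the lines differ was not tested.

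**Figure D3:**
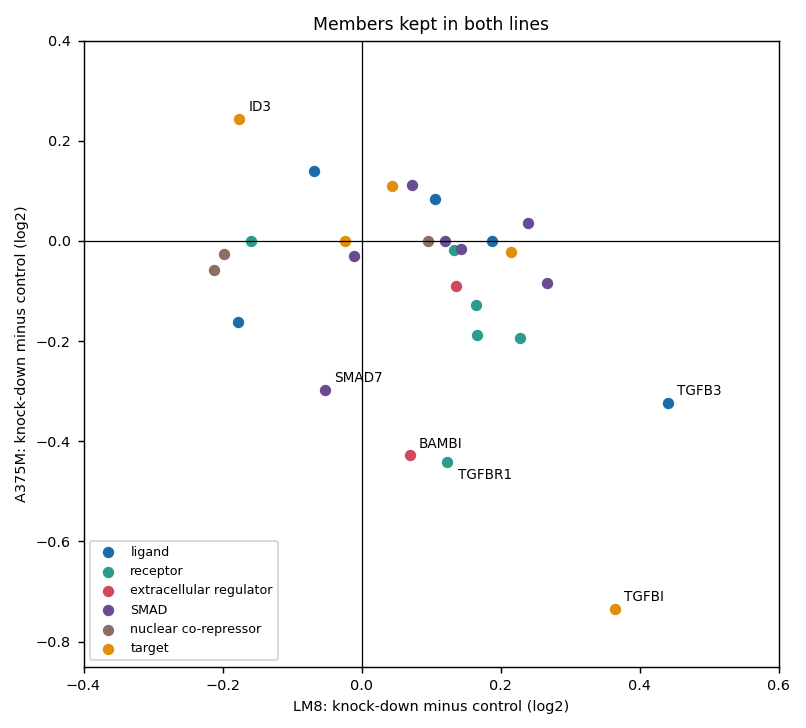
Differences of the 28 members kept in both lines, LM8 on the horizontal and A375M on the vertical axis, both given as log2 of knock-down minus log2 of control, with 1 point per gene coloured by role. The lower right area holds the 12 members higher in LM8 and lower in A375M, with TGFBI at 0.36 and -0.73 farthest out.

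A further list of 90 pathway genes, not chosen by how they moved in these arrays but written with earlier results known, gave 64 kept genes in LM8 and 69 in A375M. In LM8 35 (54.7%) were higher and 29 (45.3%) lower, near the 53.8% and 46.0% of all kept genes, or 28 and 29 with the mean of probe sets. Their median difference was 0.040. At least 1.5-fold higher was 1, where 1.16% of all kept genes were, and 0 were at least 1.5-fold lower, where 1.31% were. In A375M 26 were higher, 26 lower and 17 identical, with a median of 0, where 29.0%, 40.3% and 30.8% of all kept genes were. At least 1.5-fold higher was 1 and lower 1, where 0.378% and 0.37% of all kept genes were. The A375M counts of higher and lower genes turned with the scaling, to 42 higher and 22 lower after repeated quantile normalization and to 22 higher and 47 lower with centred arrays. Lower in A375M with the deposited values were 37.7% of the further list and 66.7% of the members, against 40.3% of all kept genes. After repeated quantile normalization these shares were 31.9% and 51.5%, against 36.6%, and with centred arrays 68.1% and 81.8%, against 77.0%.

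In LM8 the further extracellular regulators were higher in 12 of 14, with a median of 0.12, where 53.8% of all kept genes were higher. With the mean of probe sets they were higher in 8 of 12, nearer to the 51.6% of all kept genes. They included Fstl1, a follistatin-like secreted protein gene, at 12.37 in the knock-down array and 11.99 in the control array, a difference of 0.38. Ltbp4, a latent TGF-beta binding protein gene, read 7.72 in the knock-down array and 7.34 in the control array, also a difference of 0.38. Aspn, a matrix proteoglycan gene whose product binds TGF-beta, was at 0.32 close to the array median. It was kept only through the knock-down array, and a gene kept so can only read higher.

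Among the further receptors Neo1, which encodes neogenin, a receptor of repulsive guidance molecules, read 8.98 in the LM8 knock-down array and 8.39 in the LM8 control array. The difference of 0.59 just passed 1.5-fold, and its other probe sets above the median were at 0.44 and 0.27. It was under 1.5-fold after repeated quantile normalization, after removal of a loess curve, with the mean of its probe sets, without marked probe sets and with 32 added. Amhr2, the receptor gene of anti-Mullerian hormone, was at -0.35 and lower on all 3 probe sets, and Rgma, which encodes a BMP co-receptor, was at 0.25. The ligand genes with the largest differences were Inhbb, an inhibin subunit gene, at 0.18, Bmp10 at -0.18 and Bmp5 at -0.089.

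The further targets went both ways in LM8, with 8 of 20 higher and 12 lower, where 53.8% and 46.0% of all kept genes were. Klf10, a TGF-beta-induced zinc finger gene, read 7.68 in the knock-down array and 7.12 in the control array, a difference of 0.56. Snai1, a transcription factor gene of mesenchymal transition, was higher by 0.44 near the array median. Ccn1, which encodes a matricellular protein, was lower on all 4 probe sets, which read 11.30, 10.05, 8.12 and 7.83 in the knock-down array and 11.76, 10.61, 8.87 and 8.62 in the control array. Its differences were -0.46 to -0.79. Chosen after their values were seen, Col1a1, the type I collagen gene, was at 0.40 and 0.35 on its probe sets, Junb, an early target of TGF-beta, at -0.32 and Ccn2, encoding a relative of Ccn1, at -0.26. Among intracellular regulators Zeb2, which encodes a SMAD-interacting repressor, was at -0.28 with 4 of its 5 probe sets lower, Zfyve9, a SMAD anchor gene, at 0.26 and Smurf2, a ubiquitin ligase gene of the pathway, at 0.18.

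In A375M BMP7, a BMP ligand gene, read 6.64 in the knock-down array and 6.04 in the control array, a difference of 0.60. A second probe set was at 0.66 and the remaining ones were identical, and the control value of the brightest stood at 76 other probe sets. GDF11 and GDF15, ligand genes of the superfamily, were at 0.12 and 0.076. RGMA was at 0.35 with a control value shared by 160 others, RGMB at -0.20 and ACVR1C, a type I receptor gene, at -0.11. ADAM12, a metalloprotease gene induced by TGF-beta, read 7.91, 7.09 and 6.82 on its brighter probe sets in the knock-down array and 8.57, 7.58 and 7.06 in the control array, differences of -0.66, -0.49 and -0.24, with a dimmer one identical. The target genes DLX5 and SNAI2 were at 0.19 and -0.18. FN1, the fibronectin gene, chosen after its values were seen, was higher on all 6 probe sets above the median, by 0.17 to 0.51. SMAD9 was at -0.19, SMURF1, another ubiquitin ligase gene, at -0.37 to -0.18 on 3 probe sets and PPM1A, a SMAD phosphatase gene, at -0.14. Of the extracellular regulators FSTL1 was at 0.15, FBN1, the fibrillin gene, at 0.12 and CHRDL1, a BMP antagonist gene, at 0.092.

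**Figure D4:**
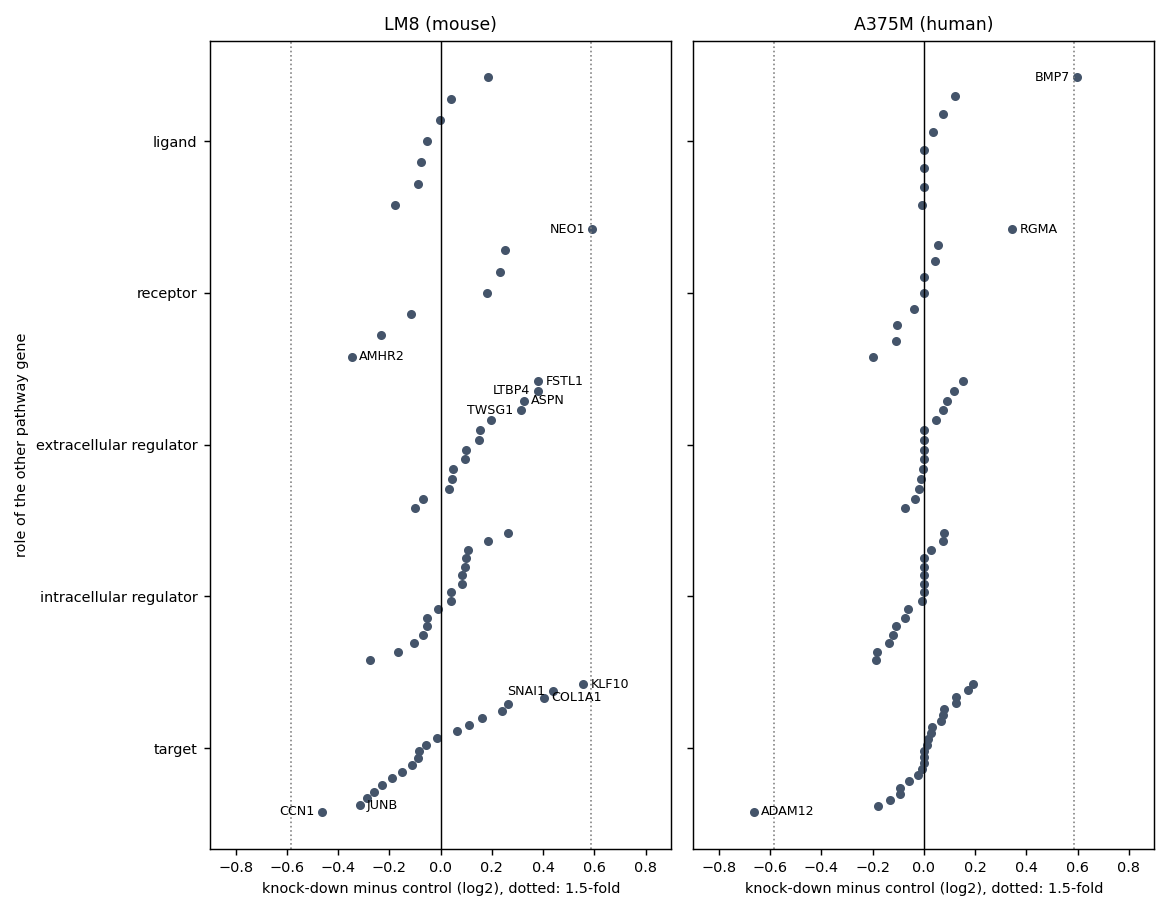
Differences of the further pathway genes kept in LM8 (left, 64 genes) and A375M (right, 69 genes), given as log2 of knock-down minus log2 of control (horizontal axis), with 1 point per gene sorted within its role and dotted lines at 1.5-fold. Named points differ by at least 0.3 in size, and NEO1 in LM8 (0.59) and BMP7 (0.60) and ADAM12 (-0.66) in A375M lie outside the lines.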

How the data were processed

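Total RNA of 4 infected cell lines was labelled as biotinylated cRNA and measured on Affymetrix arrays, per the labels' protocols, and each sample title gave its group. The authors deposited log2 values per probe set, made with RMA per the submitters' processing notes, while the software and its version are not given in the sources used here. RMA commonly makes the distributions of arrays alike, and the deposited medians were close but not equal, at 5.28 in the knock-down and 5.29 in the control array of LM8 and at 4.67 and 4.64 in A375M. Levels were compared within a species only.

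Gene names came from the platform annotation given with the values, matched without regard to case, and 5 current symbols were also searched under another name. One symbol was held by 34945 of 45037 non-control mouse probe sets and 41091 of 54613 human ones. Several symbols were held by 932 mouse and 1801 human probe sets and no symbol by 9160 and 11721, and these named no gene. The brightest probe set stood for a gene, which was kept if it exceeded the 50th percentile in either array of a pair. Differences were counted at 1.5-fold without a test. Python 3.11.15 and pandas 2.3.3 were used, and the counting was tested on simulated shifts.

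The members and lists were chosen with earlier results of these data known. Values in both arrays are given for the target gene, for members that differ by at least 0.3, for those past 1.5-fold on any probe set and for those with probe sets of both signs of which 1 reaches 0.3 in size. Differences are given for the remaining members as examples. Of the further genes, the 3 per role and line with the largest differences are named. Alternatives were no filter, a filter at the 70th percentile, centred arrays, repeated quantile normalization, loess with a span of 0.4, averaging a gene's probe sets, leaving out probe sets marked as shared (_x_at, _s_at), 32 added to linear values, thresholds of 1.25-fold and 2-fold and, added after the data were seen, leaving out identical values.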

Additional observations from a re-analysis of the deposited data

Results flagged for a closer look

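TGFBI and TGFB3 differed by at least 0.3 in size in opposite directions in the 2 lines. They were 2 of the 28 members kept in both lines, where 37 of all 8981 genes did so. TGFBI was at 0.36 in LM8 and -0.73 in A375M, so that the LM8 difference exceeded the A375M difference by 1.10. TGFB3 was at 0.44 in LM8 and -0.32 in A375M, a gap of 0.76. The gap of TGFBI rests on 4 mouse probe sets of 1 sign, at 0.044 to 0.36, and 1 human probe set. Without probe sets marked as shared the LM8 value of TGFBI was 0.24, under 0.3. The gap of TGFB3 rests on 1 mouse probe set and 1 human probe set above the median. Its dimmer human probe set, below the median, was at 0.31, so the sign of TGFB3 in A375M depends on the probe set. Each line had 1 array per group, and the difference between the lines was not tested.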

How the results depend on the processing

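The median difference of the members was 0.032 to 0.11 in LM8 and -0.091 to -0.00039 in A375M under the alternatives run. The value of -0.00039 came after repeated quantile normalization, with 17 members lower and 15 higher. The median of all kept A375M genes also moved. It was 0.019 after that step, -0.030 with centred arrays and -0.034 with identical values left out. In LM8 the median of all kept genes was 0.0063 to 0.026. The median difference of the further pathway genes ranged from -0.0041 to 0.055 in LM8 and from -0.030 to 0.031 in A375M. Counts at 1.5-fold were small and moved with single genes. In LM8 the lower members were 0 with the filter at the 70th percentile, because Grem1 was then not kept. In A375M they were 2, TGFBI and FST, with centred arrays and with the mean of probe sets. At the loosest threshold LM8 had 2 members higher and 2 lower and A375M 6 lower, and at 2-fold these counts were 0. Shares of all kept genes at these thresholds are not given, here or for the further genes below. The counts at these thresholds therefore cannot be set against the background. Of the further genes, the higher one in LM8 was lost (0) after quantile normalization, after the loess step, with the mean of probe sets, without marked probe sets, with 32 added and at 2-fold, and 7 were higher at the loosest threshold. The lower count in LM8 was 1 without the filter and with the mean of probe sets and 2 at the loosest threshold. In A375M the higher one was lost (0) with centred arrays, the mean of probe sets, 32 added and 2-fold, and 2 were higher at the loosest threshold. The lower one was lost (0) with the mean of probe sets, without marked probe sets and at 2-fold.

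Among single members 231 of 242 alternative values in LM8 and 238 of 250 in A375M moved by less than the SD between probe sets. Much of this was fixed beforehand, so these counts do not measure stability. The filter settings left the difference of every kept member as it was. Centring moved all differences of a line by the same amount, smaller than that SD. TGFBI in A375M thus went from -0.734 to -0.764. The mean of probe sets left members with a single probe set unchanged. The sign changed in 5 of the LM8 values and 9 of the A375M values, in none for a member with a difference of at least 0.3 (0 of 30 and 0 of 47). For such members the filter settings and centring were bound to leave the sign unchanged. TGFB3 in A375M counted as unchanged, although its dimmer probe set was at 0.31. No paired analysis was possible because each group held 1 array. Dim genes limit the precision, Nog and Aspn in LM8 and RGMA and BMP4 in A375M among them. The cause of the identical and recurring human values was not tested.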
